A study of Mus musculus with 6 samples.

Results

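The genes described here are 10 signals by which a cystic kidney epithelium can speak to macrophages, with the receptor of the main growth factor among them. They are the cytokines Csf1 and Il34 with their receptor Csf1r, the chemokines Ccl2, Ccl7, Cxcl1, Cxcl12 and Cx3cl1, the cytokine Mif and the adhesion molecule Icam1. They were listed by name for this role with earlier results of these libraries known. Csf1r was selected on its measured level, which was unexpectedly high, and the Cre over Flp value of Icam1 was known when it was chosen, so both of these are given as descriptions. All 10 were found by Ensembl identifier among the 49671 counted genes, and 7 of them were among the 15355 genes left after a filter on low counts.

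The cells were induced renal epithelial cells (iRECs), which are made from fibroblasts by forced expression of transcription factors of the kidney tubule. They came from the mouse strain B6.129S4-Pkd1tm2Ggg/J, whose Pkd1 gene, encoding polycystin-1, is flanked by recombination sites. The Cre cultures were transduced with Cre recombinase and are labelled Pkd1 -/-. The Flp cultures were transduced with Flp recombinase, keep the gene and are labelled Pkd1 fl/fl. Both kinds were grown to confluence in serum-containing medium. Each group held 1 culture of clone 4, of clone 7 and of clone 21, so there were 3 Cre and 3 Flp libraries, and each Cre culture was set against the Flp culture of its own clone. Each clone is a single line, and the labels name no separate animals, so the p-values speak only of variation among these 3 pairs of cultures.

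Colony-stimulating factor 1 (Csf1) and interleukin 34 (Il34) are the ligands of the receptor tyrosine kinase Csf1r, on which macrophages depend for survival and growth. The kidney tubule epithelium makes both ligands after injury. Ccl2 and Ccl7 draw monocytes through their receptor Ccr2, and in mice lacking polycystin-1 in the kidney Ccl2 is known to recruit macrophages that promote cyst growth. Csf1r itself is used as a marker of macrophages and their progenitors.

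Promoter sequences were matched for 6 of the 10 genes. Those of Csf1 and Cxcl1 are shown because they were the only ones of the 6 with a match to the motif searched, and that of Cxcl12 as an example without one. Sequences are from RefSeq on GRCm38.p6 and cover the 250 bases before the annotated start. Capitals mark matches to the NF-kB consensus, the motif bound by the inflammatory transcription factor NF-kB, searched on both strands. They lie at chr3:107760470-107760719 on the minus strand for Csf1, chr5:90890995-90891244 on the plus strand for Cxcl1 and chr6:117168285-117168534 on the plus strand for Cxcl12.
Csf1: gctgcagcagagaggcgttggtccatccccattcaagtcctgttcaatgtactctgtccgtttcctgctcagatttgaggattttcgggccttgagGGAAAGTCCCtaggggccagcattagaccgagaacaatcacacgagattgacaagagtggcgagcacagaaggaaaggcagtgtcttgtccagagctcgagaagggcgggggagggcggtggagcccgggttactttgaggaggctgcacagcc
Cxcl1: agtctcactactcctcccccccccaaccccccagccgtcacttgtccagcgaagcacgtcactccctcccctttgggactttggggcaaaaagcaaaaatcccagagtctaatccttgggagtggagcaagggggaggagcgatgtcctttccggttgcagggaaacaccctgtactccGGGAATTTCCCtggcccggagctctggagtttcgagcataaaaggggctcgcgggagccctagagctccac
Cxcl12: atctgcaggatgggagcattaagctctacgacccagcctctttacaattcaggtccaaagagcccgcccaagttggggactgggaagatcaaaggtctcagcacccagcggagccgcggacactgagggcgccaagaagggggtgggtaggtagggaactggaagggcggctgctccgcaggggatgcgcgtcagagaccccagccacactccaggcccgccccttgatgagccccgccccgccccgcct
The Csf1 match begins 154 bases before the start. The Cxcl1 window held 2 overlapping matches, on opposite strands, that begin 71 and 70 bases before the start, and that of Cxcl12 held none. The windows of Cx3cl1, Mif and Icam1, which were all expressed, held none either. Sites that differ from the consensus were not searched for, so a window without a match may still hold a site. Of 32851 promoter windows of this length, 3.90% held a match. The windows held 10, 10 and 14 CG dinucleotides for Csf1, Cxcl1 and Cxcl12, against a median of 6 over all windows.

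Library totals were 25196120 to 46918341 counts, and 3 reads corresponded to 0.0632 to 0.121 CPM (reads scaled to a common library size with TMM factors), which is the level that a count of 0 allows. Such limits cover counting error only. Pkd1 was at 145, 105 and 118 CPM in Cre clones 4, 7 and 21 and at 199, 229 and 166 CPM in the matching Flp clones. It was the lower in Cre in each clone, at a log2 fold change of -0.69 (SE 0.16, edgeR adjusted p = 0.607 after Benjamini-Hochberg adjustment). The recombined allele lacks only some exons, so reads over the whole gene check the labels in part. The kidney epithelial markers, among them the transcription factors Hnf4a at 1270.0 CPM and Emx2 at 904 CPM and the keratin Krt18 at 938 CPM, summed to 7920 to 9713 CPM in Cre and 8841 to 10270 CPM in Flp. Lrp2, at a mean of 2858 CPM, weighed most in these sums. Aqp1 of this list had 7.07, 0.274 and 0.358 CPM in Cre clones 4, 7 and 21, and 7.31, 12.4 and 3.64 CPM in the matching Flp clones. Its log2 fold change was -2.81 (SE 1.105, edgeR adjusted p = 0.714). It was the 1 gene of the 12 with an unadjusted edgeR p under 0.05, or 8.33%, against 6.82% of all genes. Of 10 fibroblast markers Vim, an intermediate filament protein of mesenchymal cells, was the most abundant at 225 CPM, Thy1 was at 0, and the list summed to 147 to 299 CPM in Cre and 228 to 334 CPM in Flp. Across genes, log CPM of Cre clone 7 correlated at 0.970 with Flp clone 7, above its 0.958 with Flp clone 4 and 0.960 with Flp clone 21. Cre clone 4 correlated at 0.980 with Flp clone 4, 0.983 with Flp clone 7 and 0.979 with Flp clone 21.

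Csf1r was among the better expressed genes of these epithelial cultures. It had 186, 295 and 250 CPM in Cre clones 4, 7 and 21, against 153, 111.5 and 197 CPM in Flp clones 4, 7 and 21. Every Cre culture lay above the Flp culture of its own clone, but the groups overlapped, because Flp clone 21 stood above Cre clone 4. Per length, Csf1r averaged 42.2 ± 9.47 CPM per kilobase of exon in Cre and 26.7 ± 7.43 in Flp (SD, n = 3 each). Over the 6 libraries its mean of 34.5 CPM per kilobase ranked 1471 among the 15355 genes tested, at the 90.4th percentile. These levels chose the gene and are a description. In bulk RNA, more cells with a transcript and more transcript per cell cannot be told apart.

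**Figure D1:**
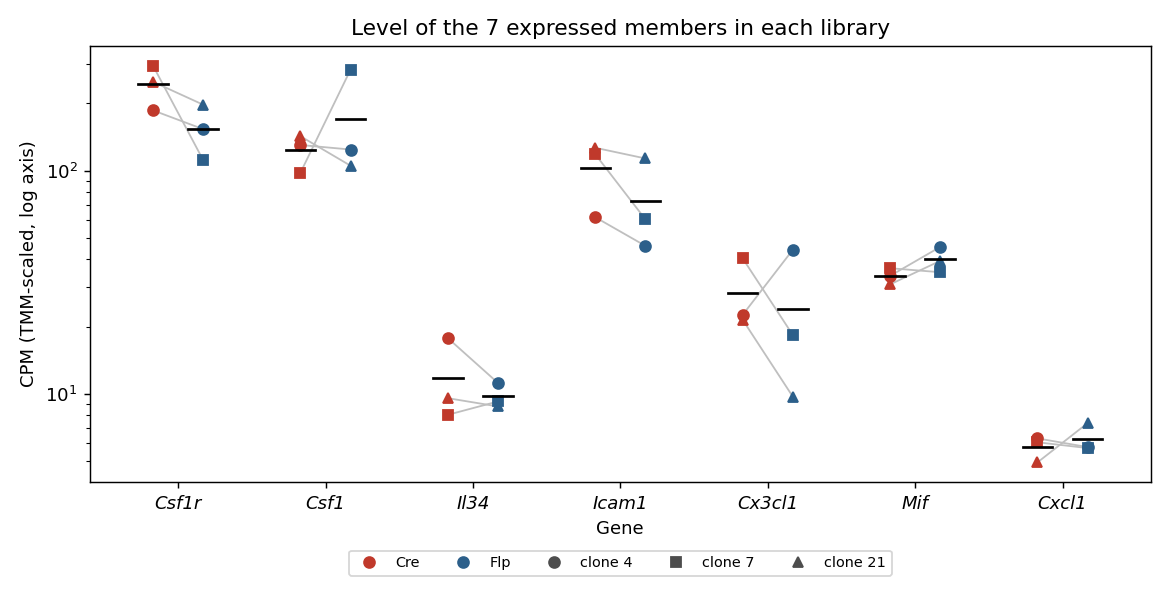
Level of the 7 members that passed the filter, in CPM on a log axis, in each Cre (red, left) and Flp (blue, right) library. Grey lines join the cultures of a clone and black bars are group means. Csf1r is higher in Cre than in Flp in each clone, and Csf1 stands at 284 CPM in Flp clone 7, against 97.9 to 143 CPM in the other libraries.

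Most markers that define macrophages were at or near 0 in the same libraries. Of 20 macrophage and haematopoietic markers, 7 had no read in any library. These were Adgre1 (the F4/80 antigen), Tyrobp and Fcgr1 (an adaptor and a receptor of myeloid cells), Cd53, the complement genes C1qb and C1qc, and Cd163. Ptprc, which encodes the pan-leukocyte antigen CD45, averaged 0.0235 CPM, and the integrin Itgam averaged 0.0146 CPM.

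The most abundant of these markers were Cd14, a lipopolysaccharide co-receptor also made by kidney tubule cells, at 41.4 CPM, the lysosomal protein Cd68 at 5.88 CPM and Spi1 at 1.65 CPM. Spi1 encodes PU.1, the transcription factor that drives Csf1r in myeloid cells. Per length, the order was Cd14, Cd68 and the receptor chain Fcer1g. The whole list summed to 34.5 to 56.6 CPM in Cre and 49.4 to 66.0 CPM in Flp. In clone 7 the sum was 34.5 CPM in Cre, where Csf1r was highest, and 66.0 CPM in Flp, where Csf1r was lowest. In clone 4 the sum was 56.6 CPM in Cre and 55.1 CPM in Flp, and in clone 21 it was 39.4 CPM in Cre and 49.4 CPM in Flp, so it was the lower in Cre in clones 7 and 21 and slightly the higher in clone 4. Most of the sum in every library was Cd14, with 46.2, 26.95 and 32.4 CPM in Cre clones 4, 7 and 21 and 46.2, 56.5 and 40.5 CPM in Flp clones 4, 7 and 21. The sums therefore mostly describe Cd14, and whether they bear on Csf1r was not tested.

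**Figure D2:**
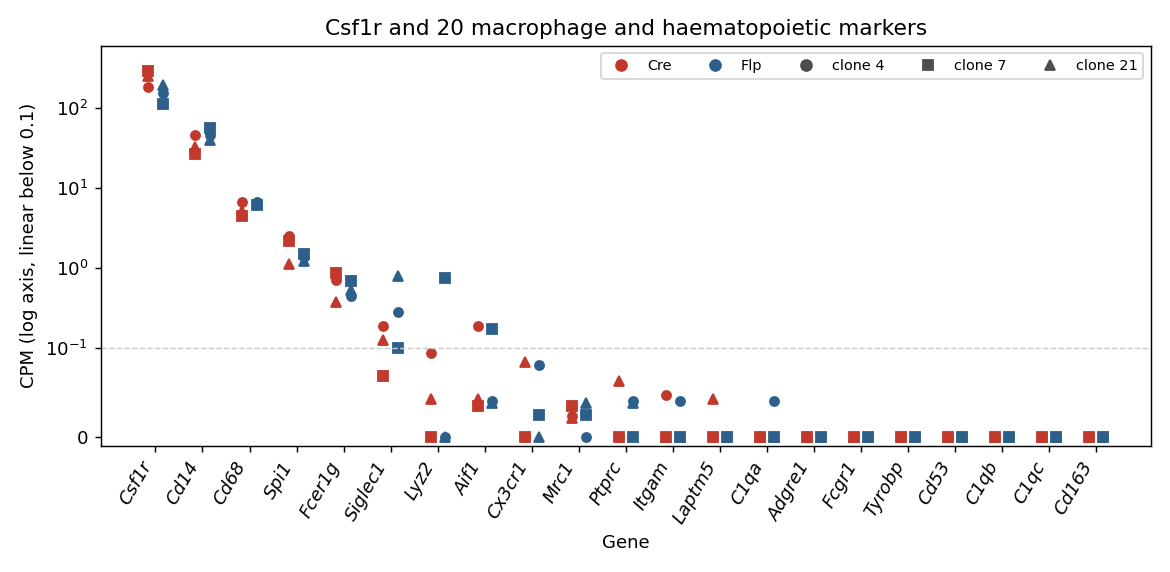
CPM of Csf1r and of 20 macrophage and haematopoietic markers in each Cre (red) and Flp (blue) library, on an axis that is logarithmic above 0.1 CPM (dashed line) and linear below. Csf1r lies between 111.5 and 295 CPM, while 7 markers at the right are at 0 in every library; points at 0 overlie each other.

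Csf1r belongs to the class III receptor tyrosine kinases, a family of growth factor receptors shared with Kit, Flt3, Pdgfra and Pdgfrb. Kit and Flt3, receptors of blood progenitors, had no read in any library. The platelet-derived growth factor receptors Pdgfra and Pdgfrb averaged 0.0382 and 1.26 CPM per kilobase over the 6 libraries, against 34.5 for Csf1r. Pdgfrb lies directly upstream of Csf1r on the same strand of chromosome 18.

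In GENCODE M21 (GRCm38), Csf1r (ENSMUSG00000024621) runs from 61100598 to 61132149 on the plus strand of chromosome 18, 15536 bases beyond the end of Pdgfrb. Per kilobase, Pdgfrb stood at 1.33, 1.10 and 1.66 CPM in Cre clones 4, 7 and 21, and at 1.87, 1.30 and 0.281 CPM in Flp clones 4, 7 and 21. Its level was far below that of Csf1r in each library, and its highest and lowest libraries were not those of Csf1r. Whether transcription of Pdgfrb bears on the reads of Csf1r was not tested. On the other side, exons of Hmgxb3, a gene of the opposite strand, share 873 of the 5774 exon bases of Csf1r, or 15.1%. Reads in that stretch cannot be assigned to either gene without strand.

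Hmgxb3 had 82.55, 79.2 and 78.4 CPM in Cre clones 4, 7 and 21 and 90.6, 79.2 and 67.7 CPM in Flp clones 4, 7 and 21. In clone 7 its Cre over Flp log2 ratio was 0.00, where that of Csf1r was 1.40. Among the other nearest expressed neighbours, Tcof1, which encodes a nucleolar protein, averaged 23.25 CPM per kilobase, the sulfate transporter Slc26a2 5.35 and the coactivator Ppargc1b 1.37. Arsi, an arylsulfatase gene 182036 bases before Csf1r, stood in clone 4 at 55.4 CPM (Cre) and 65.3 CPM (Flp), in clone 7 at 135 CPM (Cre) and 38.7 CPM (Flp), and in clone 21 at 0.969 CPM (Cre) and 0.638 CPM (Flp). Over the 49 tested genes within 5 Mb (megabases) of Csf1r, the median log2 ratio was -0.10, -0.06 and 0.07 in clones 4, 7 and 21.

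**Figure D3:**
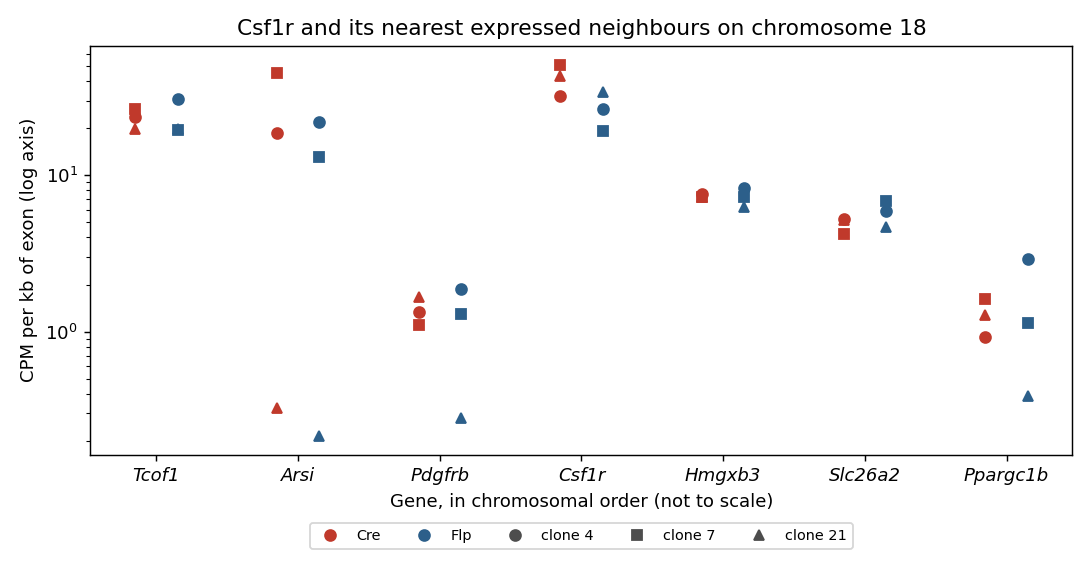
CPM per kilobase of exon, on a log axis, of Csf1r and of the 3 nearest genes with at least 1 CPM on each side, in chromosomal order, for each Cre (red, left) and Flp (blue, right) library. Csf1r lies between 19.3 and 51.1, Pdgfrb before it between 0.281 and 1.87, and the overlapping Hmgxb3 after it between 6.23 and 8.34.

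The comparison of Cre with Flp asked whether loss of Pkd1 went with a difference in these signals. In edgeR's quasi-likelihood fit with clone as a block, 0% of the 15355 genes passed an adjusted p of 0.05, and so did 0 of the 6 tested members other than Icam1. At an unadjusted p under 0.05 the fit counted 6.82% of all genes and 1 of these 6 members, Csf1r. Csf1r was chosen on its level in these same libraries, so counts that rest on it are a description. DESeq2 with the clone block called 1.28% of all genes and none of these 6 members, and limma-voom called 0 genes. Of the same 6 members, 1, Csf1r, lay above 0 in all 3 clones and 0 lay below 0 in all 3, where 14.6% and 13.1% of all genes did so. None of the 6 had Cre and Flp values that did not overlap, which was the case for 8.13% of all genes.

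Csf1r was higher in Cre by a log2 fold change of 0.67 (SE 0.24), with ratios of 0.28, 1.40 and 0.34 in clones 4, 7 and 21. Its unadjusted p was 0.0323 and its edgeR adjusted p was 0.686. Without a filter on low counts, with 28286 genes tested, edgeR called 0.792% of genes and Csf1r passed at an adjusted p of 0.0467. Without clone 7 the log2 fold change was 0.31 (edgeR adjusted p = 0.838). The authors' deposited table lists Csf1r at a log2 fold change of 0.51 with an adjusted p of 0.140 and a mean of 6744 normalised counts.

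The ligand Csf1 (ENSMUSG00000014599, chr3:107741048-107760469, minus strand) stood apart in 1 library. It had 130, 97.9 and 143 CPM in Cre clones 4, 7 and 21, against 124, 284 and 105 CPM in Flp clones 4, 7 and 21. Flp clone 7 stood above the other 5 libraries, which lay within 97.9 to 143 CPM. The log2 fold change was -0.33 (SE 0.38, edgeR adjusted p = 0.948) with ratios of 0.07, -1.53 and 0.44, and without clone 7 it was 0.25. Over the 93 tested genes within 5 Mb of Csf1 on chromosome 3, the median ratio in clone 7 was 0.01.

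Csf1 and Csf1r ran against each other in clone 7. Per kilobase, Csf1 stood to Csf1r at a ratio of 0.363 in Cre and 2.78 in Flp of that clone. The ratio was 0.765 and 0.886 in Cre and Flp of clone 4, and 0.624 and 0.583 in Cre and Flp of clone 21. Receptor transcripts thus outnumbered those of the ligand per length in 5 of the 6 libraries, and Flp clone 7 was the other.

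**Figure D4:**
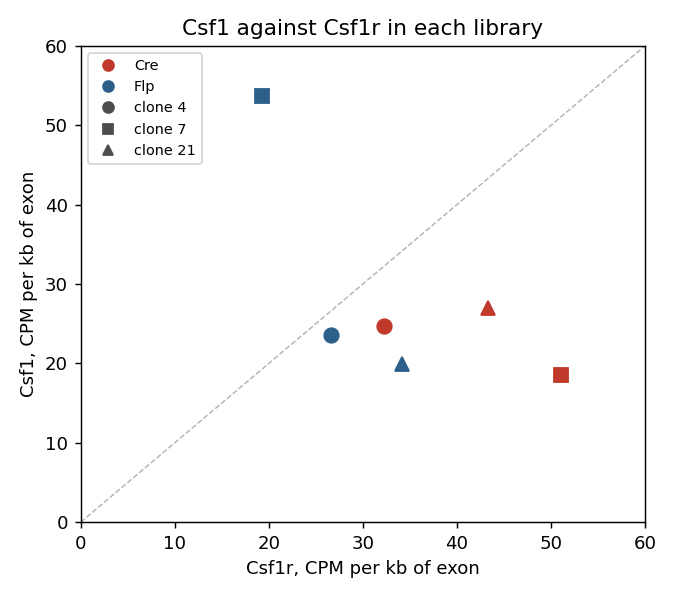
CPM per kilobase of exon of Csf1 (y axis) against Csf1r (x axis), 1 point per Cre (red) or Flp (blue) library, with the dashed line marking equal levels. Flp clone 7 lies above the line at 53.7 for Csf1 and 19.3 for Csf1r, and the other 5 libraries lie below it.

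Il34 (ENSMUSG00000031750, chr8:110741829-110805924, minus strand), the other ligand of Csf1r, was present at a lower level than Csf1 in every library. It had 17.8, 8.06 and 9.56 CPM in Cre clones 4, 7 and 21, against 11.2, 9.25 and 8.78 CPM in Flp clones 4, 7 and 21. Clone 4 was the highest in both groups, and the groups overlapped. Per kilobase, Il34 stood to Csf1 at ratios of 0.181 to 0.368 in Cre and 0.0879 to 0.243 in Flp. The log2 fold change of Il34 was 0.20 (SE 0.24, edgeR adjusted p = 0.948), and without clone 4 it was -0.04. Exons of the antisense genes Gm15894 and Gm15895 cover 22 and 75 of its 1959 exon bases, so its counts are slightly uncertain.

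The monocyte chemokines Ccl2 and Ccl7 were under the limit that a count of 0 allows, and Cxcl12 was near it. Ccl2 (ENSMUSG00000035385, chr11:82035571-82037453, plus strand) had 0 reads in all 6 libraries, which allows up to 0.0632 to 0.121 CPM in a library. Ccl7 (ENSMUSG00000035373, chr11:82045712-82047525, plus strand), its neighbour, had 1 read in Cre clone 7 and 1 read in Flp clone 7, and 0 in the other 4. Cxcl12 (ENSMUSG00000061353, chr6:117168535-117181367, plus strand), a chemokine of stromal cells, had 0 reads in each Cre library and 4, 6 and 1 reads in Flp clones 4, 7 and 21, at 0.1615, 0.149 and 0.0375 CPM. All 3 genes were removed by the filter on low counts and were not tested, and no fold is given at this depth. In the authors' deposited table their mean normalised counts are 0 for Ccl2, 0.334 for Ccl7 and 1.75 for Cxcl12.

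The other chemokines, Cx3cl1 and Cxcl1, were expressed. Cx3cl1 (ENSMUSG00000031778, chr8:94772009-94782427, plus strand), or fractalkine, is a membrane-bound chemokine whose shed form draws monocytes through Cx3cr1. It had 22.6, 40.5 and 21.5 CPM in Cre clones 4, 7 and 21, against 44.2, 18.4 and 9.72 CPM in Flp clones 4, 7 and 21. Cre was the higher in clones 7 and 21, with log2 ratios of 1.14 in each, and the lower in clone 4, at -0.97. The fitted value was 0.46 (SE 0.45, edgeR adjusted p = 0.930), and leaving out 1 clone moved it widely. It was 1.14 without clone 4 (edgeR adjusted p = 0.182), 0.07 without clone 7 (edgeR adjusted p = 0.993) and 0.08 without clone 21 (edgeR adjusted p = 1).

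Cxcl1 (ENSMUSG00000029380, chr5:90891241-90893115, plus strand), a neutrophil chemokine that acts through Cxcr2, was low and even. It had 6.32, 6.07 and 4.93 CPM in Cre clones 4, 7 and 21 and 5.78, 5.72 and 7.39 CPM in Flp clones 4, 7 and 21. The groups overlapped, and the log2 fold change was -0.12 (SE 0.27, edgeR adjusted p = 0.975). Its ratios were 0.13 and 0.09 in clones 4 and 7 and -0.58 in clone 21, and without clone 21 the value was 0.10.

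The cytokine Mif (ENSMUSG00000033307, chr10:75859353-75860240, minus strand) had the highest mean level per length of the 10 genes. It averaged 45.3 ± 3.78 CPM per kilobase in Cre and 53.7 ± 7.04 in Flp (SD, n = 3 each). In CPM it was at 33.8, 36.55 and 30.9 in Cre clones 4, 7 and 21 and at 45.5, 35.1 and 39.4 in Flp clones 4, 7 and 21. Cre was the lower in clones 4 and 21 and about level in clone 7, with log2 ratios of -0.43, -0.35 and 0.06. The fitted value was -0.24 (SE 0.15, edgeR adjusted p = 0.859), and it was -0.39 without clone 7 and -0.15 without clone 4. Mif has 4 annotated copies with at least 95% identity over at least 200 bases, of which C230062I16Rik averaged 0.930 CPM and the others at most 0.174 CPM, so reads that match more than 1 copy make its level uncertain.

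Icam1 (ENSMUSG00000037405, chr9:21015985-21028817, plus strand), the adhesion molecule by which leukocytes bind activated epithelium, had 61.9, 118 and 127 CPM in Cre clones 4, 7 and 21. In Flp clones 4, 7 and 21 it had 46.0, 60.5 and 113 CPM. Cre was the higher in each clone, but the groups overlapped, and the difference within clones 4 and 21 was smaller than the spread between clones, with means of 102 ± 35.3 CPM over the Cre cultures and 73.3 ± 35.4 CPM over the Flp cultures (SD, n = 3 each). The log2 ratios were 0.43, 0.97 and 0.16 and the fitted value was 0.52 (SE 0.17), given as a description because this value was known when the gene was chosen. Without clone 7 the fitted value was 0.29. Exons of the antisense gene Gm47079, with at most 5 reads in a library, cover 11.7% of its exon bases.

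**Figure D5:**
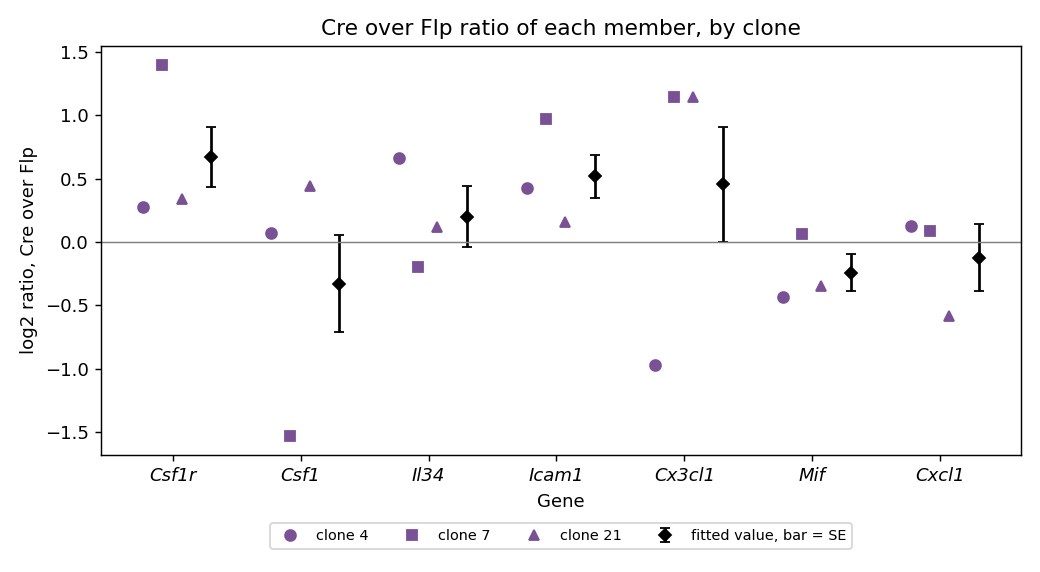
Log2 ratio of Cre over Flp in clones 4, 7 and 21 (purple) and the fitted edgeR value with its SE (black) for the 7 members that passed the filter. Csf1r and Icam1 lie above 0 in all 3 clones, and the ratios of Csf1 span -1.53 to 0.44 and those of Cx3cl1 -0.97 to 1.14.

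For the other tested members, the authors' deposited table gives log2 fold changes of -0.24 for Csf1, 0.16 for Il34 and 0.42 for Icam1. It gives 0.18 for Cx3cl1, -0.20 for Mif and -0.06 for Cxcl1. Each has the sign found here, but these values come from the same libraries. The direction of that table was also read from the signs found here, so the shared signs are no separate support.

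Ranked per length over the 6 libraries, the members fell in the order Mif, Csf1r, Csf1, Icam1, Cx3cl1, Il34 and Cxcl1. Their means were 49.5, 34.5, 27.9, 20.1, 6.65, 5.50 and 3.22 CPM per kilobase. Mif was above Csf1r in 4 of 6 libraries, Csf1r above Csf1 in 5, Csf1 above Icam1 in 3, Icam1 above Cx3cl1 in 5 and Cx3cl1 above Il34 in 3, so each of these neighbours overlapped in range. Il34 and Cxcl1 did not overlap, at 4.11 to 9.07 and 2.63 to 3.94. Cxcl1 in turn lay above Ccl7, Cxcl12 and Ccl2 in every library.

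Genes of the NF-kB pathway, which switches on Csf1, Ccl2, Cxcl1 and Icam1 in inflamed epithelium, were all expressed, with all 17 tested. Of these, 0 passed in either direction, 0 had an unadjusted p under 0.05, and the median log2 fold change was 0.08, against 0.00 over all genes tested. The values of 15 were above 0 and of 2 below 0, where 7781 and 7574 of all 15355 genes tested were so. Above 0 in all 3 clones were 3 of the 17, or 17.65%, against 14.6% of all genes. The median log2 ratio of the list was 0.16, 0.00 and 0.15 in clones 4, 7 and 21. The most abundant per length of exon were the kinase Chuk at 36.95, the subunit Rela at 32.8 and the subunit Nfkb2 at 15.05 CPM per kilobase. This order depends on the length used. Per length of the longest transcript, Chuk was at 53.7, Ikbkb at 39.25, Nfkb1 at 37.6, Rela at 37.1 and Nfkb2 at 17.9. Nfkb2 had the smallest p of the list, at a log2 fold change of 0.26 (SE 0.12, edgeR adjusted p = 0.760), followed by Chuk at 0.24 and the inhibitor Nfkbia at 0.27. Exons of Nfkb2 overlap those of Psd, so its reads are uncertain without strand. Summed over the list, levels were 1194 to 1265 CPM in Cre and 1115 to 1171 CPM in Flp, and the difference in these sums was not tested.

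Among the receptors and partners of the members, most receptors that leukocytes carry were low. Ccr1, a chemokine receptor of monocytes, was the highest of the Ccr and Cxcr receptors on the list at 2.13 CPM, with 33 to 123 reads in a library, and Cxcr4, the receptor of Cxcl12, averaged 0.563 CPM. Ccr2 averaged 0.0287 CPM, Cx3cr1 0.0317 CPM and Cxcr2 0.00745 CPM, and Cd74, the receptor chain of Mif, 0.267 CPM. The most abundant per length were Ackr3, the scavenging receptor of Cxcl12, at 86.0, the membrane protease Mmp14 at 52.8 and Adam10, a protease that sheds Cx3cl1, at 43.5 CPM per kilobase. Ackr3 had 275, 312 and 307 CPM in Cre clones 4, 7 and 21 and 320, 234 and 280 CPM in Flp clones 4, 7 and 21, whereas its ligand Cxcl12 had at most 6 reads in a library. Of 13 tested genes among 22, 0 passed, 0 had an unadjusted p under 0.05, and the median log2 fold change was -0.04. The smallest p were those of Cd44 at -0.44 (SE 0.21, edgeR adjusted p = 0.775), Mmp14 at 0.38 and Dpp4 at -1.27.

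The signalling and transcription list of Csf1r was represented by widely used kinases and adaptors. Per length the phosphatase Ptpn11 was at 42.0, the kinase Src at 38.55 and the transcription factor Ets2 at 29.7 CPM per kilobase, whereas the myeloid genes Tyrobp and Inpp5d were at 0 and 0.0308 CPM. Of 17 tested genes among 19, 0 passed, 0 had an unadjusted p under 0.05 and the median log2 fold change was -0.03. The smallest p were those of the kinase Fyn at -0.57 (SE 0.24, edgeR adjusted p = 0.734), the adaptor Dok2 at 0.87 and the phosphatase Ptpn6 at 0.75.

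Among 39 other signals to macrophages and leukocytes, 19 were tested and 9 had no read in any library, among them Il1b, Csf2 and Ccl4. Tnf and Il6 averaged 0.00414 and 0.00351 CPM. The most abundant per length were the lectin galectin-3 (Lgals3) at 30.0, osteopontin (Spp1) at 14.02 and complement C3 at 12.0 CPM per kilobase. Of the 19, 0 passed in either direction. An unadjusted edgeR p under 0.05 was found for 1, Lgals3, or 5.26%, against 6.82% of all genes. The median log2 fold change was 0.09, with 13 above 0 and 6 below. Over all 15355 genes tested, 7781 were above 0 and 7574 below. Above 0 in all 3 clones were 3 of the 19, or 15.8%, against 14.6% of all genes.

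Lgals3 had the smallest p of this list. It had 45.9, 81.4 and 73.2 CPM in Cre clones 4, 7 and 21 and 38.5, 46.3 and 49.4 CPM in Flp clones 4, 7 and 21, a log2 fold change of 0.55 (SE 0.14, edgeR adjusted p = 0.619). Cre was higher in each clone, and the groups overlapped between Cre clone 4 and Flp clones 7 and 21. Vcam1, an adhesion molecule for monocytes, stood at a log2 fold change of 1.64 (SE 0.67, edgeR adjusted p = 0.732), with 42.3, 114 and 71.25 CPM in Cre clones 4, 7 and 21 and 43.2, 39.3 and 6.005 CPM in Flp clones 4, 7 and 21. The cytokine Lif stood at 0.36 (SE 0.15, edgeR adjusted p = 0.734), with Cre above Flp in every library, which 4.19% of all genes showed.

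Genes with the pattern most like Csf1r across the 6 libraries, by Pearson correlation of log2 CPM among 10731 genes of at least 5 CPM, were the DNA glycosylase Neil2 at 0.991, the replication factor Donson at 0.990 and the acetyltransferase Kat8 at 0.985. Those most like Csf1 were Dnajc18 at 0.993, the sulfotransferase Chst11 at 0.980 and the phosphodiesterase Enpp1 at 0.978. For Csf1r 20 genes and for Csf1 14 genes reached 0.95, and with 6 libraries from 3 clones these values describe a resemblance only.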

How the data were processed

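Total RNA of 6 cultures was sequenced. The submitters' processing notes name DESeq2 2.11.40.1, featureCounts 1.6.0.3, FastQC 0.67, Trim Galore 0.4.3.0 and STAR 2.5.2b-2, and the builds GRCm38 and mm10. The strand setting was not given in the sources used here, nor was the annotation release. For each library the authors deposited whole-number counts, not normalised, by Ensembl identifier. A further deposited table, of the authors' own comparison, holds mean normalised counts over all libraries (a signal), log2 fold changes with standard errors, a test statistic (a score) and p-values. Its sign was read as Cre over Flp, since 95.6% of 12825 matched genes had the sign found here.

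Symbols, coordinates and exon lengths came from GENCODE M21, which named 49326 of 49671 identifiers. Counts were filtered with filterByExpr, scaled by TMM and tested in R 4.3.3 with edgeR 4.0.16 (quasi-likelihood, clone block), Benjamini-Hochberg adjustment over 15355 genes and a threshold of 0.05. Clone ratios used a prior count of 2, and standard errors came from the F statistic. Alternatives used DESeq2 1.42.0 and limma 3.58.1. Each count test was first run on simulated counts without differences between clones, which cannot show how it performs where clones differ. The clone block follows the series' design: libraries of clones 4, 7 and 21 deviated from their group means with correlations of 0.202, 0.115 and 0.304, against -0.268 to 0.023 for libraries of different clones. Copies were sought by blastn, and figures drawn with matplotlib 3.10.9.

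Members and lists were chosen with earlier results of these data known. Named genes were the members, genes nearest to Csf1r or overlapping a member, the 3 most abundant per length of each list, the 3 with the smallest p of each pathway list, and the 3 most like Csf1r and Csf1; other genes named were chosen after their values were seen.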

Additional observations from a re-analysis of the deposited data

Results flagged for a closer look

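For 5 members the Cre over Flp log2 ratio was positive in some clones and negative in others. With 1 pair of libraries per clone the difference between clones was not tested. The distance between the highest and the lowest clone ratio was 2.10 for Cx3cl1, negative in clone 4 and positive in clones 7 and 21. It was 1.97 for Csf1, negative in clone 7 and positive in clones 4 and 21. The distance was 0.86 for Il34, again negative in clone 7 alone, 0.71 for Cxcl1, negative in clone 21 alone, and 0.49 for Mif, positive in clone 7 alone.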

How the results depend on the processing

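Without the replicate block edgeR called 0 genes, as with it. DESeq2 with the replicate block called 196 genes and without it 14. With no filter applied, edgeR called 224 of 28286 genes, or 0.792%. Of the 8 members other than Icam1 that were tested without the filter, 1 was called, Csf1r (log2 fold change 0.68, edgeR adjusted p = 0.0467), whose adjusted p ranged from 0.0467 to 1 over all alternatives. Of the 85 genes on the 4 pathway lists that were tested without the filter, 1 was called, Vcam1. Its log2 ratios were -0.03, 1.53 and 3.56 in clones 4, 7 and 21. The cause of these differences between settings was not tested. Leaving out each clone in turn called 0 genes each time, and gave log2 fold changes of -0.74 to 0.25 for Csf1 (0.25 without clone 7), -0.04 to 0.40 for Il34 (-0.04 without clone 4), -0.25 to 0.10 for Cxcl1 (0.10 without clone 21), 0.31 to 0.87 for Csf1r, 0.07 to 1.14 for Cx3cl1, -0.39 to -0.15 for Mif and 0.29 to 0.69 for Icam1. With the length of the longest transcript, levels were 61.5 CPM per kilobase for Mif and 34.6 for Icam1. The order within pathway lists also changed with this length. Mmp14 at 97.2 then stood above Ackr3 at 93.9, and Ets2 at 44.15 above Src at 43.1 and Ptpn11 at 42.25. Among the other signals, Vcam1 at 12.9 then stood above C3 at 12.05. Other normalizations, a filter of at least 1 CPM in 3 libraries and other prior counts changed no direction of a member's fitted value and no call. Depth limits what can be said of Ccl2, Ccl7 and Cxcl12.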

Other observations

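Ptprz1, a receptor phosphatase that also binds interleukin 34, differed widely between clones. It had 46.9, 9.70 and 8.87 CPM in Cre clones 4, 7 and 21 and 16.1, 129 and 45.7 CPM in Flp clones 4, 7 and 21. Its highest library, Flp clone 7, was also the highest for Csf1. The log2 ratios were 1.53, -3.72 and -2.36, with a fitted value of -1.71 (SE 1.11, edgeR adjusted p = 0.874). The acute phase gene Saa3 had 2, 1 and 1 reads in Cre clones 4, 7 and 21 and 0 in each Flp library, which is under the limit that a count of 0 allows. Both genes were chosen after their values were seen.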
